A study of Mus musculus with 7 samples.

Results

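The ribosome-bound RNA of cholinergic cells of the mouse ventral striatum was described at baseline, in the 3 WT libraries of the series and without reference to its knockout libraries. Members were the rows of the expression table whose mean over WT1, WT2 and WT3 reached 1 FPKM, and 9974 of 22016 rows qualified. FPKM scales the fragments of a gene to its length and to the size of the library, so that levels can be set side by side between genes. Each library was made from 6 ventral striata of 3 mice pooled together, aged 8 to 12 weeks, untreated and on a C57/Bl6N background. Mice of the study were male and female, but Y-linked genes were above 0.0 FPKM in WT1 only, as given below. The mice carried the ChAT bacTRAP transgene, which puts a tag on ribosomes of cells in which a bacterial artificial chromosome copy of the Chat promoter is active. They also carried floxed alleles of p11, the product of S100a10, and were the littermates without Cre, so that the floxed alleles were present without Cre. A replicate was a pool of animals, and every SD below is a spread between pools, which joins differences between animals with those of handling.

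Translating ribosome affinity purification (TRAP) pulls tagged ribosomes out of a tissue lysate together with the messenger RNA they carry. A level in such a library is a share of the purified RNA and was not set here against the unpurified tissue. Striatal cholinergic neurons are large, tonically active interneurons that supply acetylcholine to a nucleus otherwise made up mostly of GABAergic medium spiny projection neurons. They are known for their autonomous firing, for their response to dopamine through the D2 receptor, and for the vesicular glutamate transporter VGLUT3 carried alongside the acetylcholine machinery.

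The 3 libraries were alike in size and range. Summed FPKM was 440720 in WT1, 434548 in WT2 and 418931 in WT3, and 9730, 10034 and 10053 rows reached 1 FPKM. Across genes, Pearson correlations of log2(FPKM + 1) between pools were 0.974 for WT1 with WT2, 0.970 for WT1 with WT3 and 0.991 for WT2 with WT3, with the genes not being independent replicates. WT1 stood apart from the other pools. At least 2-fold differences on the log2(FPKM + 1) scale were seen in 287 members between WT1 and WT2 and in 322 between WT1 and WT3, against 22 between WT2 and WT3. The Y-linked genes Ddx3y, Eif2s3y, Uty and Kdm5d were at 4.8, 4.7, 1.9 and 1.8 FPKM in WT1. They were listed at 0.0 in WT2 and WT3. Xist, the RNA of the inactive X chromosome, was listed at 0.0 in the 3 pools. A difference in sex make-up between the pools cannot be told apart here from the other ways in which WT1 differed. The part of these differences in the results below was not tested.

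The genes that define cholinergic cells were among the most abundant messages. Slc18a3, the vesicular acetylcholine transporter, was at 676, 542 and 412 FPKM in WT1, WT2 and WT3 (mean 543 ± 132, SD, n = 3) and ranked 131st of the members. Chat, the enzyme that makes acetylcholine, was at 208, 306 and 228 FPKM (248 ± 51.9), rank 314. Slc5a7, the high-affinity choline transporter that returns choline to the terminal, was at 167, 186 and 226 FPKM (193 ± 30.2), rank 404. Slc18a3 was highest in WT1 and Slc5a7 in WT3, so the pools did not order these genes in the same way. Lhx8, a LIM homeobox factor needed for the cholinergic fate, was at 159, 169.9 and 193 FPKM (174 ± 17.4), rank 449. The 4 markers thus did not go against the label of the cells. Because these are bulk libraries, fewer cells of a type and less RNA per cell cannot be told apart in any level given here.

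Chat and Slc18a3 belong to a single locus, shown here because the Chat promoter also drives the ribosome tag. In GENCODE M21 (mm10) Chat spans chr14:32408203-32465989 on the minus strand (ENSMUSG00000021919.8), and Slc18a3 is a gene of 1 exon at chr14:32462438-32464850 on the same strand (ENSMUSG00000100241.1), inside the span of Chat and overlapping 0 of its exons. Their start regions, the 250 bases before each RefSeq transcription start (GRCm38.p6, minus strand, chr14:32465910-32466159 for Chat and chr14:32464851-32465100 for Slc18a3), read as follows 5′ to 3′, with CG pairs in capitals.
Chat: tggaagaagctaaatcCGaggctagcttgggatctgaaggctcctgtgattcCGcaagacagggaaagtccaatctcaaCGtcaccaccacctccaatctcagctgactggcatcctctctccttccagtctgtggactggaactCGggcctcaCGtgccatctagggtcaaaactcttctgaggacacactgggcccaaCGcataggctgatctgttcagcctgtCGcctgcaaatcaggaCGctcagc
Slc18a3: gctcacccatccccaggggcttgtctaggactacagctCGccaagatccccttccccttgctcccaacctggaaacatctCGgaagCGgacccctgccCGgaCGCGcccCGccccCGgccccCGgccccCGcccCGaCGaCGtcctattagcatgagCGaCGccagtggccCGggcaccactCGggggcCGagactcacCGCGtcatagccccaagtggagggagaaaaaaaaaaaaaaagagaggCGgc
The GENCODE span of Chat reaches to chr14:32465989, which lies inside the Chat window taken from RefSeq. Part of that window is thus within the gene as GENCODE gives it. The Chat window held 8 CG pairs at 54.8% G and C, and the Slc18a3 window 21 at 66% G and C. Over the 32851 starts in the RefSeq table the same windows had a median of 6 CG pairs and 52.4% G and C, and 16.3% held at least as many CG pairs as that of Slc18a3. The level of Slc18a3 was 3.24 times that of Chat in WT1, 1.77 times in WT2 and 1.81 times in WT3. The ratio was therefore above 1 in each pool and largest in WT1. Slc18a3 lies inside the span of Chat, and the mice carried a transgene with the Chat promoter. Any Slc18a3 RNA from the transgene cannot be told apart here from that of the native gene. The part of the transgene in the level and the ratio was not tested. The longest Slc18a3 transcript had 61.2% G and C and that of Chat 54.3%. Members richest in G and C stood slightly higher in WT1 in their median, as described further on. The part of base composition in the ratio of Slc18a3 to Chat was not tested.

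Other genes of the acetylcholine system were spread widely in level. Prima1, which anchors acetylcholinesterase to the membrane, was at 276, 309.6 and 268 FPKM, and its range overlapped that of Chat but not that of Slc18a3. Slc44a1, a general choline transporter, was far lower at 4.57 ± 0.929 FPKM (SD, n = 3). Bche, butyrylcholinesterase, and Colq, the collagen tail of acetylcholinesterase, were under the threshold, Colq being listed at 0 in the 3 pools. Of 13 transcription factors or cofactors listed for these neurons 10 were members. Zic1, a zinc finger factor, came after Lhx8 with 117, 139 and 116 FPKM. Isl1, the LIM homeobox partner of Lhx8, was at 41, 45.6 and 48 FPKM, and Nkx2-1, which specifies the medial ganglionic eminence from which these cells come, at 30.4, 43.9 and 41.6 FPKM. These ranges overlapped, and Lhx6, a factor better known from other interneurons of the same origin, followed at 21.8 ± 4.89 FPKM. Ngfr, the low-affinity neurotrophin receptor p75, was at 28.5, 38.5 and 48.1 FPKM, lowest in WT1 and highest in WT3.

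**Figure D1:**
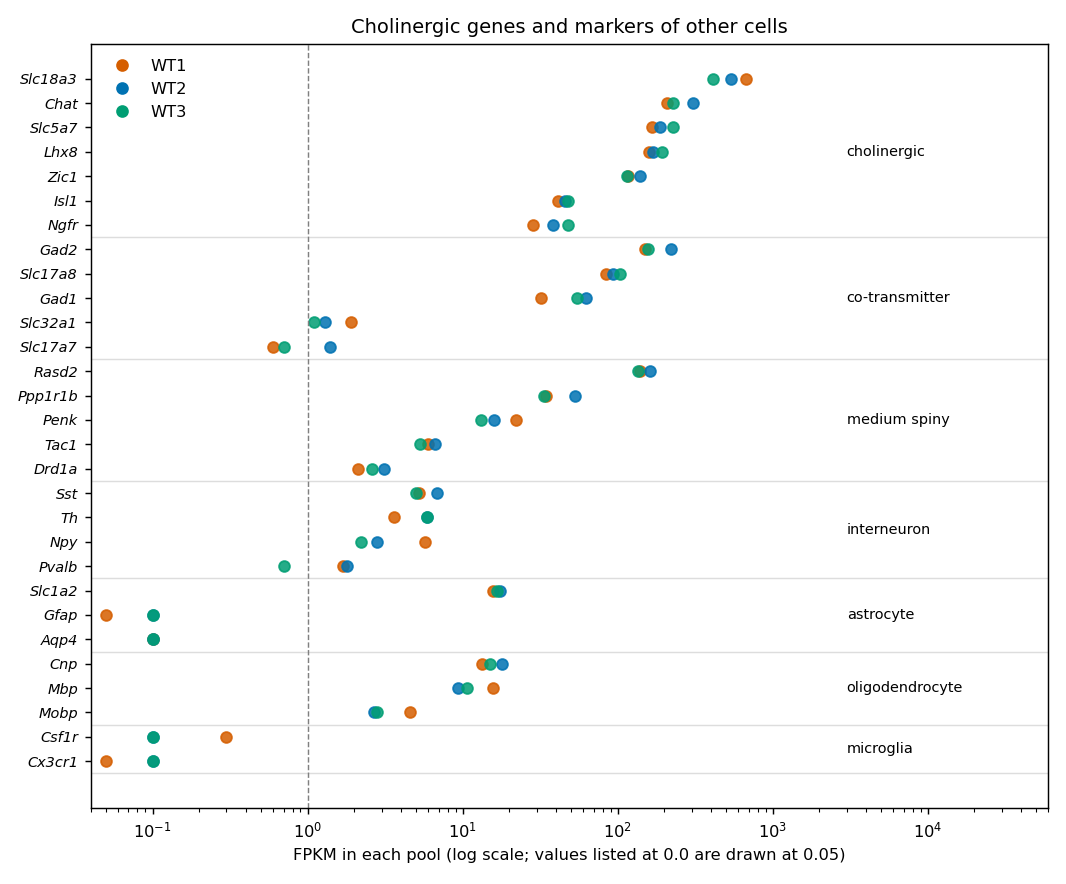
FPKM on a log axis in WT1, WT2 and WT3 (points, colours by pool) for cholinergic genes, genes of other transmitters, and markers of other striatal cells. The dashed line marks the threshold of 1 FPKM. Chat, Slc18a3, Slc5a7 and Lhx8 lie at 159 FPKM or more in every pool, whereas Gfap, Aqp4, Csf1r and Cx3cr1 lie at or under 0.3 FPKM.

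Markers of other cells were present at lower levels and unevenly between cell types. Of the 12 medium spiny neuron markers 11 were members, and the 12 together summed to 237, 276.5 and 223 FPKM. The largest part of that sum was Rasd2, a small GTPase of striatal neurons, at 139, 162.5 and 135.5 FPKM. Its range overlapped that of Lhx8, and the cells that its RNA came from were not tested. Ppp1r1b, which encodes the phosphoprotein DARPP-32 of medium spiny neurons, was at 34.5, 53.1 and 33.7 FPKM, highest in WT2. Chat was 6.04, 5.77 and 6.77 times Ppp1r1b in the 3 pools. Drd1a, the dopamine D1 receptor of direct-pathway neurons, was at 2.1, 3.1 and 2.6 FPKM, and Foxp2 lay just under the threshold. Of 8 markers of other striatal interneurons 5 were members, and the 8 together summed to 18.4, 19.7 and 16 FPKM. Sst, Th, Npy, Pvalb and Nos1 made up these 5, with means from 1.27 FPKM for Nos1 to 5.67 FPKM for Sst, and Calb2 and Htr3a were near 0.

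Among glia the picture was mixed. Astrocytes had 3 of 8 markers as members, led by Aldoc (36, 38.1 and 34.7 FPKM), a glycolytic enzyme, and Slc1a2 (15.7, 17.4 and 16.6 FPKM), a glutamate transporter, while the defining genes Gfap, Aqp4 and Gja1 were at or under 0.1 FPKM. Oligodendrocytes had 5 of 8, the 8 together summing to 38.5, 34.8 and 32.2 FPKM, with the myelin genes Cnp at 15.4 ± 2.38 FPKM and Mbp at 11.9 ± 3.38 FPKM (SD, n = 3). Of these members Mbp, Mobp and Cldn11 were highest in WT1, whereas Cnp and Mog were lowest there. Pdgfra, at 5.67 ± 1.44 FPKM, was the 1 member among 5 markers of oligodendrocyte precursors. No marker of microglia (9), glutamatergic neurons (6) or blood cells (5 rows) was a member. Endothelial and mural cells had 3 of 9, with Cldn5, Pdgfrb and Kcnj8 listed at 0 in the 3 pools, and ependymal cells 1 of 6, Rsph1, at 9.5, 4.5 and 3.1 FPKM. Several of these genes are also made by neurons, and the part that RNA of other cells had in the levels below was not tested.

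The ranking of all members was steep at its top. The median member was at 9.6 FPKM, with quartiles at 3.73 and 25.9, and the highest at 4627 FPKM. Levels of at least 10 FPKM were reached by 4890 members (49%), of at least 100 FPKM by 754 (7.56%) and of at least 1000 FPKM by 57. The 10 highest members held 7.68% of the summed FPKM of all members, the 100 highest 31% and the 1000 highest 71%. The highest members were much the same in each pool, since 91 rows were among the 100 highest in the 3 pools.

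Snap25, a membrane fusion protein of nerve terminals, headed the ranking with 4445, 5074 and 4361 FPKM. Pcp4, a calmodulin-binding peptide also called PEP-19, was second with 3992, 4776 and 4742 FPKM, although 19.9% of its 31-base words also occur in transcripts of its neighbour Igsf5. Their ranges overlapped, so the order of the first and the second was not set beyond the spread. Calm2, a calmodulin gene, followed with 3879, 3633 and 3197 FPKM, and Tmsb4x, the actin-binding thymosin beta-4, stood sixth with 2837, 3024 and 3043 FPKM. The other named genes among the 20 highest were of 3 kinds. Ppia, Mif, Stmn1 and Uchl1 encode abundant cytosolic proteins, Rpl41 and Rpl38 ribosomal proteins, and Ndufa4, Atp5l, Cox6a1, Atp5g3, Cox7c, Uqcr11, Atp5k and Usmg5 small subunits of the respiratory chain or ATP synthase. Vamp2, the vesicle partner of Snap25, was at 1945, 1661 and 1479 FPKM. Ndufa4 and Atp5g3 were among the steadiest of the high rows, at 2628, 2667 and 2726 FPKM and at 2069.6, 2063 and 2027 FPKM. Of these, Ppia, Rpl41, Rpl38, Stmn1, Cox7c and Mif shared more than 20% of their 31-base words with other genes, and reads of such rows can be split or lent between copies.

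**Figure D2:**
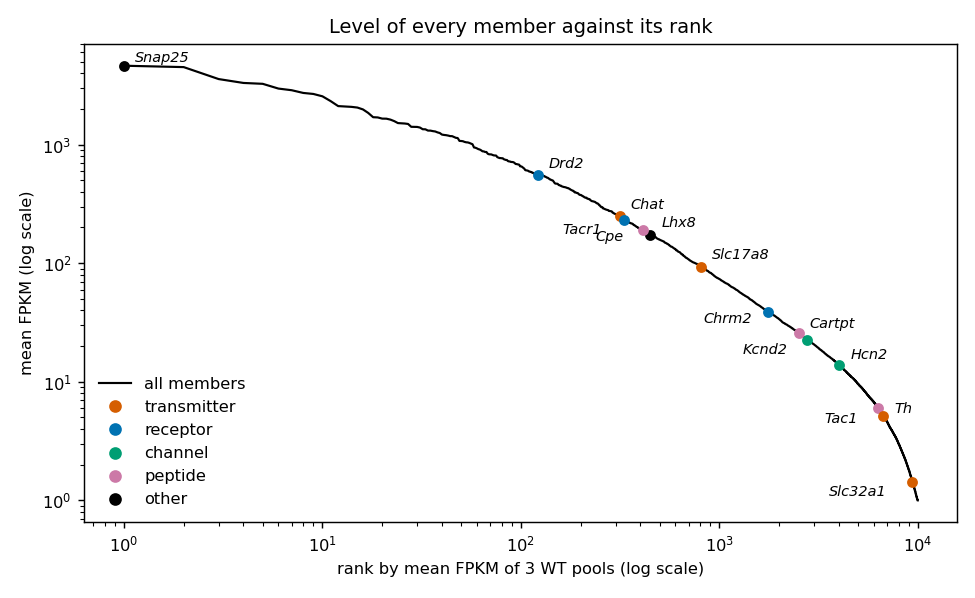
Mean FPKM over the 3 pools against rank, both on log axes, for all 9974 members (line), with example genes as points coloured by class. Drd2, Chat and Tacr1 have ranks 122, 314 and 329, and Slc32a1 lies near the threshold of 1 FPKM.

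Lars2, the mitochondrial leucyl-tRNA synthetase, was eighth with 4648, 1979 and 1555 FPKM. It was far above the next synthetase, Nars, at 95.5, 109 and 93.5 FPKM, a ratio of 48.7 in WT1, 18.1 in WT2 and 16.6 in WT3. The median of the 32 synthetase members was 6.67 FPKM, and Lars2 was also the one of them with an SD of log2(FPKM + 1) over 0.5. Only 0.923% of its 31-base words occur in transcripts of other genes. That check covers exact matches among annotated transcripts, so it cannot show whether reads of other sequence were counted in this row. Whether the row can be read as the level of Lars2 messenger RNA was not tested. The Lars2 row was set apart both by its height within its family and by its value in WT1.

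Genes of other transmitters were present next to those of acetylcholine. Gad2 and Gad1 make GABA, and Gad2 was at 151, 219.8 and 157 FPKM while Gad1 was at 31.9, 62.8 and 54.4 FPKM. Both were highest in WT2 and lowest in WT1, and Gad2 exceeded Gad1 by 4.74, 3.5 and 2.88 times. Slc32a1, the vesicular GABA transporter that loads the transmitter into vesicles, was in contrast close to the threshold with 1.9, 1.3 and 1.1 FPKM. Gad2 was 79.5, 169 and 143 times as high as Slc32a1. Abat, which breaks GABA down, was at 85.2 ± 16.8 FPKM (SD, n = 3).

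Slc17a8, which encodes VGLUT3, was at 84.6, 93.1 and 103 FPKM and ranked 811th. The vesicular transporters of other glutamatergic neurons were under the threshold, Slc17a7 at 0.6, 1.4 and 0.7 FPKM and Slc17a6 at 0.1 FPKM in each pool. Slc17a8 was 141, 66.5 and 148 times as high as Slc17a7. Of 15 monoamine genes 5 were members. The degrading enzyme Maob led them at 47.4 ± 8.29 FPKM, above its relative Maoa at 12.4 ± 0.379. Th, the first enzyme of dopamine synthesis, was at 3.6, 5.9 and 5.9 FPKM, and Slc18a2, the vesicular monoamine transporter, at 2.6, 4.6 and 5.1 FPKM. These overlapped each other and lay under the median of all members. Dagla, which makes an endocannabinoid, was at 17.5 ± 2.34 FPKM, above its relative Daglb at 4.63 ± 0.907.

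Of 144 receptor rows 61 were members (42.4%), near the 45.3% over all rows of the table, and 33 (22.9%) were listed at 0 in the 3 pools, against 36.5% of all rows. A few receptors were very high. Drd2 led the class at 485, 478 and 696 FPKM and ranked 122nd, and its range overlapped that of Slc18a3. It was highest in WT3. Drd5, the other dopamine receptor known in these neurons, was at 24.8, 26.4 and 28.1 FPKM, so that Drd2 exceeded it by 19.5, 18.1 and 24.8 times and exceeded Drd1a by 231, 154 and 268 times. Drd2 is also made by indirect-pathway medium spiny neurons, whose other markers Penk and Gpr6 were at 22.2, 15.9 and 13.2 FPKM and at 1.5, 1 and 0.9 FPKM.

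Receptors for peptides followed the same form of a few high members. Tacr1, the substance P receptor, was at 219, 226 and 253 FPKM, a range that overlapped that of Chat. Tacr3, the neurokinin B receptor, was at 32.2, 32.7 and 43.9 FPKM. The other 4 members among 31 peptide receptor genes had means between 1.37 FPKM for Mchr1 and 3.57 FPKM for Crhr1. Of the opioid receptors, Oprd1 (delta) was at 38.7, 46.9 and 56.3 FPKM, above Oprm1 (mu) at 12.2, 14.7 and 15.3 and the nociceptin receptor Oprl1 at 10.5, 9.3 and 14.7 FPKM. The ranges of Oprm1 and Oprl1 overlapped, and that of Oprd1 overlapped neither.

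Acetylcholine receptors were led by inhibitory muscarinic types. Chrm2, an autoreceptor of cholinergic cells, was at 30.3, 39.1 and 47.4 FPKM and Chrm4, coupled to the same class of G protein, at 19.5, 14.3 and 14.4 FPKM. These were the 2 members among 5 muscarinic genes, and their order was the same in each pool. Among 16 nicotinic subunit rows 2 were members, Chrnb2 at 9.6, 10.9 and 13.7 FPKM and Chrna7 at 0.6, 1.3 and 1.9 FPKM, and 8 were listed at 0 in the 3 pools.

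Receptors for GABA and glycine reached higher levels than those for glutamate at their top. Gabbr1, a GABA-B subunit, was at 142.5, 112.7 and 146.7 FPKM, while its obligate partner Gabbr2 was at 14.3, 13 and 16.5 FPKM. Glra2, a glycine receptor subunit, was at 38.4, 40.2 and 47.4 FPKM. Of 15 GABA-A subunits 10 were members, with Gabrg3 first at 27.7, 24.2 and 30.1 FPKM and Gabra4 and Gabra3 overlapping each other (means 14.5 and 13.8 FPKM). Gria1 led 9 members among 10 AMPA, kainate and delta subunits with 17.8, 17.3 and 18.3 FPKM, one of the steadiest receptor rows. Grin3a, a modulatory NMDA subunit, was at 16.4, 21 and 29.3 FPKM and Grin2b at 8.7, 9.9 and 12.2 FPKM. Each of the 4 NMDA members had its lowest value in WT1, as did 51.7% of all members. The metabotropic members Grm5 and Grm3 were at 2.73 ± 0.416 and 2.1 ± 0.265 FPKM. Serotonin receptors were low, with 4 of 13 as members led by Htr5a at 6.3 ± 0.557 FPKM. Hrh2, a histamine receptor, was at 12.4, 12 and 12.7 FPKM, and Cnr1, the cannabinoid receptor, at 2.7, 6.5 and 5 FPKM.

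Ion channels were represented more fully than receptors, 94 of 146 rows being members (64.4%), beside 42.4% of receptor rows and 45.3% over all rows of the table. Trpc4, a receptor-operated cation channel, was at 20.6, 25.7 and 27.1 FPKM. Scn2b, an accessory subunit of sodium channels, was at 101.5, 85.5 and 97.5 FPKM, well above the pore-forming Scn2a1 at 22.2, 29.6 and 33.9 FPKM. Kcnip4, which modifies A-type potassium channels, was at 57.1, 90.9 and 101 FPKM, lowest in WT1. The calcium channel accessory subunits Cacna2d2 and Cacna2d3 overlapped each other at 69.1 ± 7.32 and 65 ± 6.35 FPKM (SD, n = 3). Cacna1a, at 8.2 ± 0.7 FPKM, had the highest mean of the pore-forming calcium channel members.

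Channels tied to pacemaking were present. Among the HCN genes, whose channels carry the hyperpolarization-activated current, means ran from 22.6 ± 2.95 FPKM for Hcn3 through 19.4 ± 3.16 for Hcn4 to 13.9 ± 3.17 for Hcn2. Each overlapped its neighbour in this order. The sodium leak channel complex was led by its accessory gene Fam155a at 54, 50.3 and 60.6 FPKM, with Unc80 at 17.7, 24.3 and 29.4 and the pore-forming Nalcn at 4.9, 6.4 and 8.4 FPKM. Kcnk9, a two-pore potassium channel, was at 49.2, 57.2 and 72.2 FPKM and overlapped Fam155a. Of 31 voltage-gated potassium channel rows 19 were members, among them Kcnd2, a subunit of the A-type current, at 20.2, 20.4 and 27.4 FPKM. The inward rectifiers Kcnj12 and Kcnj3, the latter opened by G proteins, were at 24.6 ± 2.49 and 20 ± 0.493 FPKM. Kcnt2, a sodium-activated potassium channel, was at 24.4 ± 5.74 FPKM, above the 3.4 ± 0.529 FPKM of Kcnn3, a small-conductance calcium-activated channel.

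Of the 5 broad classes, peptide genes had the smallest share of rows that were members, 31.9%, beside 45.3% over all rows of the table. Of 49 precursor genes 8 were members, and 15 were listed at 0 in the 3 pools. Cartpt, the CART precursor, was at 17.5, 29.7 and 29.9 FPKM, and Penk, the enkephalin precursor, at 22.2, 15.9 and 13.2 FPKM. WT1 was lowest for Cartpt and highest for Penk, so their order turned between WT1 and the other pools. Gal, the galanin precursor, was at 7.3, 6.8 and 7.9 FPKM, and Tac1, the substance P precursor, at 6, 6.6 and 5.3 FPKM. Npy was at 5.7, 2.8 and 2.2 FPKM and Rln3, relaxin-3, at 7.7, 1.3 and 0.4 FPKM, both highest in WT1, and Rln3 passed the threshold on its mean while WT3 lay under it.

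Genes that pack and trim peptides differed in level. All 7 granin and granule genes were members with a median of 48.8 FPKM, whereas the 7 members among 9 processing enzymes had a median of 5.83 FPKM, close to the 5.82 FPKM of the 8 precursors. Pcsk1n, the proSAAS inhibitor of prohormone convertase, was at 100.4, 51.5 and 57.7 FPKM, and Chga, chromogranin A, was nearly level at 50.2, 47.3 and 49 FPKM. Cpe, the carboxypeptidase that trims prohormones, was at 239.6, 142 and 191 FPKM. Its range overlapped that of Chat through WT1, while its values in WT2 and WT3 lay under the lowest Chat value of 208 FPKM. The convertases Pcsk2 and Pcsk1 were at 19.9 ± 3.9 and 16.3 ± 0.557 FPKM and overlapped. The 4 cerebellin genes, secreted synapse organizers, were under the threshold.

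Housekeeping genes were nearly complete and high, with 394 of 410 rows as members (96.1%), beside 45.3% over all rows of the table. The nuclear-encoded respiratory chain had a median of 357 FPKM over 75 members, cytosolic ribosomal proteins 326 FPKM over 80, glycolytic enzymes 301 FPKM over 12 and the vacuolar proton pump, which also energizes synaptic vesicles, 205 FPKM over 15. The respiratory chain held 10.4% and the ribosomal proteins 8.19% of the summed FPKM of all members. Mitochondrial ribosomal proteins, all 73 of them members, had a median of 37.4 FPKM, well under their cytosolic counterparts. Proteasome subunits had a median of 46.6 FPKM, the cytosolic chaperonin 66.7 FPKM and translation factors 33.7 FPKM, and tRNA synthetases (6.67 FPKM) were below the median of all members. Common reference genes were spread widely, from 3.5 FPKM for Tfrc, the transferrin receptor, to 3311 FPKM for Ppia, cyclophilin A. Aldoa led glycolysis at 1522, 1394 and 1316 FPKM, and Atp6v1e1 the proton pump at 479, 465 and 408 FPKM. Ribosomal protein and respiratory chain genes were highest in WT1 in 55 of 80 and 52 of 75 members, beside 28.9% of all members.

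Genes of the nerve terminal differed by place. The 33 members among 36 synaptic vesicle and fusion genes had a median of 102 FPKM, close to housekeeping genes, whereas the 17 rows of active zone scaffolds, all members, had a median of 14.3 FPKM. Syp, the vesicle protein synaptophysin, was at 524, 365 and 182 FPKM, highest in WT1 and lowest in WT3. The scaffold Erc2 led its group at 53.4, 65.5 and 72.8 FPKM, and 15 of the 17 scaffold rows had their lowest value in WT1, beside 51.7% of all members. Among regulators of G protein signalling, Rgs10 (251.5, 261.8 and 255.8 FPKM) and Rgs4 (216, 297 and 231 FPKM) were at the level of Chat. Of 17 immediate early genes, which neurons induce upon activity, 7 were members (41.2%), near the 45.3% over all rows of the table. These members were low, with a median of 2.8 FPKM beside 9.6 FPKM for all members. They were led by Dusp1 at 6.9, 7.9 and 6.5 FPKM and Egr1 at 6.6, 6.5 and 5.5 FPKM.

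Set side by side, the classes differed more in level than the pools did. The median member of the housekeeping class was at 94.6 FPKM, with pool medians of 98.4, 96.1 and 92.5 FPKM in WT1, WT2 and WT3. The transmitter class (30 members) had a median of 14.5 FPKM and pool medians of 14.2, 13.8 and 14.3, and the peptide class (22 members) 11.8 FPKM and 11.9, 11.8 and 10.6. Receptors (61 members) and channels (94 members) were lowest, at 8.1 FPKM with pool medians of 6.2, 7.2 and 8, and at 6.62 FPKM with 5.8, 6.25 and 7.4. All members together had pool medians of 9, 9.8 and 9.9 FPKM. The pool medians of transmitter genes lay above those of peptide genes without overlap, and those of receptors and channels overlapped. The peptide median rested on WT2 in part and was 7.6 FPKM without it. Of the summed FPKM of all members, housekeeping genes held 25.4%, and transmitter, receptor, channel and peptide genes 0.477%, 0.369%, 0.355% and 0.143%. The classes cover unequal shares of their lists, 96.1% of housekeeping but 31.9% of peptide rows being members, and a median over members leaves out the rest.

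**Figure D3:**
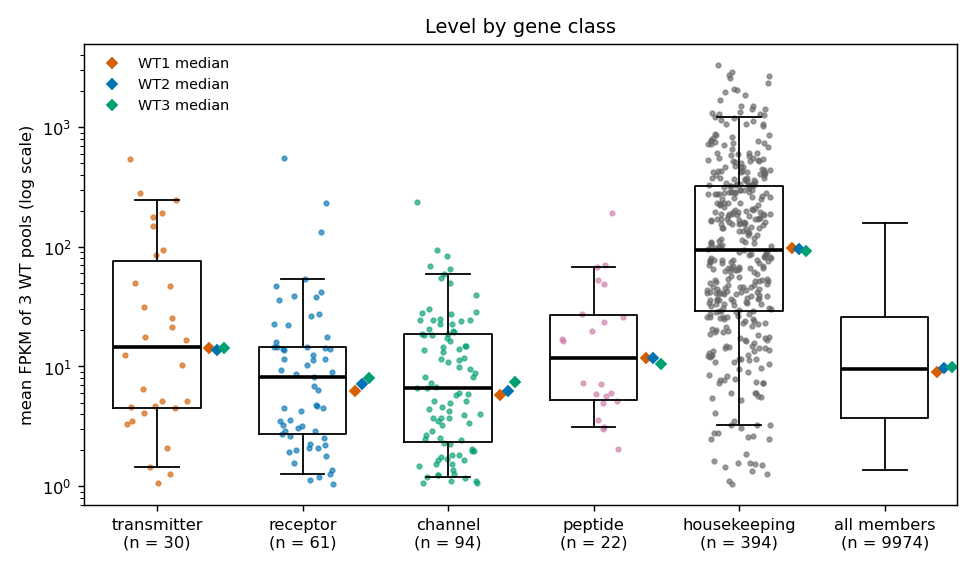
Mean FPKM over the 3 pools on a log axis for the members of each class (points), with boxes for the median and quartiles and whiskers at percentiles 5 and 95, and diamonds for the class median in each pool. The all-members column shows a box without points. Housekeeping genes lie at a median of 94.6 FPKM, the other classes between 6.62 and 14.5 FPKM.

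The spread between pools was small for most members and smaller at higher levels. The median SD of log2(FPKM + 1) was 0.20, with quartiles at 0.12 and 0.30, and the median coefficient of variation of FPKM was 15.7%. By level, the median SD was 0.25 in 1975 members from 1 to 3 FPKM, 0.22 from 3 to 10, 0.18 from 10 to 30, 0.17 from 30 to 100, 0.15 from 100 to 1000 and 0.16 in the 57 members over 1000. Without WT1 the median SD over all members was 0.11. Values rounded to 0.1 FPKM weigh most on the lowest of these bins. By class, the median SD was 0.14 for housekeeping, 0.20 for channel, 0.23 for transmitter, 0.25 for receptor and 0.26 for peptide genes. Members at the levels of these classes had medians of 0.17, 0.22, 0.18, 0.22 and 0.20. Peptide, transmitter and receptor medians were thus above and housekeeping and channel medians below those of like level. Class spreads taken from pairs of pools had SDs of 0.025, 0.042, 0.069, 0.073 and 0.023 in the same order. The distance from members of like level exceeded this SD for peptide genes. It was about as large as the SD for housekeeping genes and smaller for the others. Without WT1 the class medians were 0.09 for housekeeping, 0.16 for channel, 0.11 for transmitter, 0.18 for receptor and 0.17 for peptide genes. Beside the 0.11 of all members without WT1, transmitter genes were then level and channel genes above. With pools scaled to the same median, housekeeping genes were at 0.18. The comparison with members of like level was not made without WT1 or after scaling. The placing of the classes therefore holds only for the 3 pools together and for the values as deposited.

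**Figure D4:**
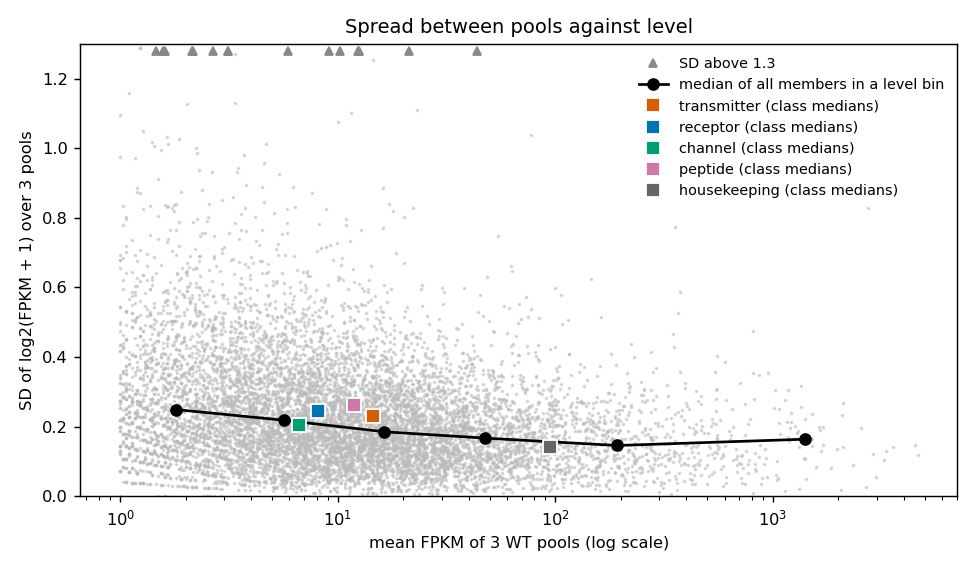
SD of log2(FPKM + 1) over the 3 pools against mean FPKM on a log axis, for each member (grey points), with the median in 6 level bins (black) and the medians of the 5 classes (squares). The 16 members with an SD above 1.3 are drawn as triangles at the top edge. The bin medians go from 0.25 at the lowest level to 0.15 from 100 to 1000 FPKM.

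Among members of at least 10 FPKM the extremes of spread were far apart. Ccm2, a scaffold of cerebral cavernous malformation signalling, was at 28.8, 28.6 and 28.7 FPKM and Rab2a, a Golgi GTPase, at 342, 343 and 341 FPKM. The mitochondrial genes Atp5o (809, 813 and 803 FPKM) and Hsd17b10 (28.7, 28.7 and 28.4 FPKM), together with Prmt3, Irak1, Lsm5, Wbp4, Sc5d, Usp30, Pgs1, Scp2, Map1s, Reep2 and Loh12cr1, were the other members with the smallest SD. At the opposite end, Snhg9, a host of small nucleolar RNAs, was at 30.6, 4.9 and 8.2 FPKM, and Ext2, a heparan sulfate polymerase, at 46.3, 10.7 and 12.4 FPKM. WT1 was the highest pool in 10 and the lowest in 4 of the 15 most variable named members, beside 28.9% and 51.7% of all members. The lowest were exemplified by Snhg1, another such host gene, at 7.4, 21.7 and 22.4 FPKM and by Moap1, a modulator of apoptosis, at 3.4, 16.4 and 14.6 FPKM, the latter with 85.7% of its 31-base words shared with other genes. Cirbp, the cold-inducible RNA-binding protein, was at 87.8, 45.5 and 30.8 FPKM. Mtag2, Rac3, Lrrc10b, Nudt1, Snrpd3, Fam131c, Cers1 and Pygo1 completed the most variable members with Lars2 and Syp.

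WT1 was the lowest pool in 5155 of the 9974 members (51.7%), WT2 in 2042 and WT3 in 2469. The median difference of a pool from the mean of the others, on the log2(FPKM + 1) scale, was -0.11 for WT1, 0.05 for WT2 and 0.06 for WT3. For WT1 it went from -0.20 in members of 1 to 3 FPKM to 0.18 in those over 1000 FPKM, so high rows were higher and low rows lower in that pool. Receptors stood at -0.28 in WT1 and 0.26 in WT3, and channels at -0.12 and 0.23. With pools scaled to the same median, WT1 stood at -0.17 for receptors and -0.028 for channels, and with quantile normalization at -0.17 and -0.011, so the WT1 value of channels rested on the scaling. Housekeeping genes stood at 0.07 in WT1 and -0.04 in WT3. WT1 was lowest and WT3 highest in 34 of 61 receptors (55.7%) and 40 of 94 channels (42.6%), against 27.6% of all members and 12.2% of housekeeping genes.

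The pools also differed along transcript length and base composition, taken from the longest GENCODE M21 transcript of each of 9918 matched members. Across genes, Spearman correlations of length with the deviation of a pool were -0.26 for WT1, 0.07 for WT2 and 0.30 for WT3, and those of G and C content were 0.30, -0.20 and -0.23. They share the libraries, so they describe these pools only. From the shortest to the longest of 5 equal bins of transcripts the median deviation of WT1 went from 0.05 to -0.26, and that of WT3 from -0.04 to 0.19. From the bin poorest to that richest in G and C, WT1 went from -0.26 to 0.06. Receptor and channel members had median lengths of 4282 and 4955 bases, housekeeping members 1868 bases and all members 3424 bases. Members in the length bin of the class median stood at -0.16 in WT1 for receptors and for channels and at 0.05 for housekeeping genes, beside the class values of -0.28, -0.12 and 0.07. The part of length and of base composition in the class differences was not tested further.

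**Figure D5:**
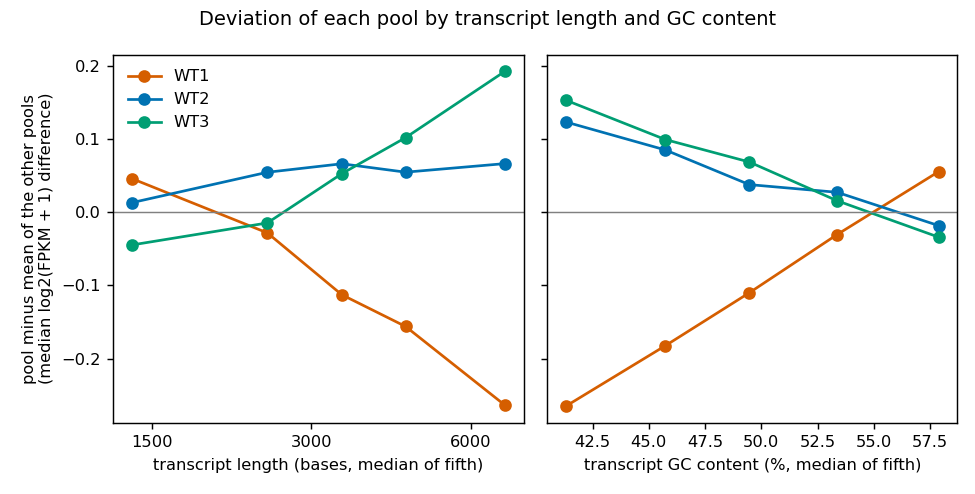
Median difference of each pool from the mean of the others, in log2(FPKM + 1), for members in 5 equal bins of transcript length (left, log axis) and of G and C content (right). Lines join the bins of one pool. WT1 goes from 0.05 to -0.26 with length while WT3 goes from -0.04 to 0.19.

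A few of the highest rows carry names under which the level cannot be read as that of the named RNA. The row of Mir703, a microRNA gene, ranked 5th of all members at 3394, 3384 and 2988 FPKM. Its hairpin and its mature form, from RefSeq (GRCm38.p6, chr5:98475556-98475664, minus strand), are shown because the hairpin shares a long run with a messenger RNA. Capitals mark that run in the hairpin and the seed, bases 2 to 8, in the mature microRNA.
Mir703: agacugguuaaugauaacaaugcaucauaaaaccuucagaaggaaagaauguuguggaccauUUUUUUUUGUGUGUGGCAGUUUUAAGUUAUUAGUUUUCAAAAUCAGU
mmu-miR-703: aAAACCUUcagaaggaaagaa
The run of 47 bases, positions 63 to 109 of the hairpin, is found letter for letter in transcripts of Eef1a1, a translation elongation factor, and 36.7% of the 31-base words of the hairpin occur there. The mature microRNA begins at position 29, before the run. The shared words are more than this run alone can hold, and whether the others reach the mature microRNA was not tested. Eef1a1 itself was at 856, 778 and 854 FPKM, and the Mir703 row was 3.97, 4.35 and 3.5 times as high, a per-length ratio over only 109 bases. Mir546, with 38.6, 46.4 and 148 FPKM, lies with its 121 bases wholly within transcripts of Ctdsp2, at 7, 5.7 and 6.4 FPKM.

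Small RNA rows were rare and unsteady otherwise. Of 766 microRNA and small nucleolar RNA rows 13 passed the threshold, 1 of them the long host gene Mir22hg, and 10 of the 13 were listed at 0.0 in at least 1 pool. Snora2b was at 131 FPKM in WT1 and at 0.0 in WT2 and WT3, and it had the largest SD of all members. Processed pseudogenes were the other such group. Atp6v0c-ps2 was at 1295, 1050 and 1231 FPKM, and 92.9% of its 31-base words occur in Atp6v0c, a proton pump gene listed at 80.6, 75.3 and 52.9 FPKM. Gm12191, a pseudogene with 90.3% of its words in Rpl30, was at 738, 686 and 713.5 FPKM, and Rpl30 at 19.1, 21.1 and 14.8 FPKM. How the authors divided reads between such copies was not given in the sources used here, so the levels of both members of each pair are uncertain. In all, 1293 of the members shared more than 20% of their words with other genes.

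At the threshold itself the step between rows inside and outside was far smaller than the spread between pools. Aph1a (0.3, 1.3 and 1.4 FPKM), Cd70 (2.1, 0.2 and 0.7) and Cep135 (0.7, 1.2 and 1.1) were among 53 rows with a mean of exactly 1 FPKM just inside. Tom1l1 (0.2, 1.1 and 1.6 FPKM), Trib1 (0.9, 1.3 and 0.7) and Zhx2 (0.8, 1.1 and 1) were among 50 rows with a mean of 0.967 FPKM just outside. Of the members, 611 were under 1 FPKM in at least 1 pool and 24 were listed at 0.0 in at least 1, while 492 rows outside reached 1 FPKM in a pool and 8030 were listed at 0.0 in the 3.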

How the data were processed

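Per the labels' protocols, RNA bound to tagged ribosomes was amplified with the Ovation RNA-seq V2 kit, sheared and made into single-end TruSeq V2 libraries, 1 for each pool of 3 mice. Cufflinks 2.1.1, DESeq 1.10.1, TopHat2 2.0.8, TopHat and the mm10 build are listed in the submitters' processing notes with no role or order. Which annotation was used, and how strand and multiply matching reads were treated, is not given in the sources used here. Each library has a column of deposited FPKM values with a step of 0.1, so a value under 0.05 is listed as 0.0. Depth is therefore unknown, whole reads could not be recovered, no counting interval or floor is given, and the number of pools limits the precision. Columns were paired with samples through the file header.

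Only the 3 WT libraries were used, and the authors' deposited table of their own comparison was not used. Rows whose mean reached 1 FPKM were kept. For each, the mean and SD of FPKM over 3 pools, the SD of log2(FPKM + 1) and the difference of each pool from the mean of the others on that scale were computed with Python 3.11.15, pandas 2.3.3 and scipy 1.17.1, and figures were drawn with matplotlib 3.10.9. With 1 group there was no test and no p-value. The computation was checked on simulated data. Genes were said to overlap where their ranges over the pools did. The share of a gene's 31-base words found in transcripts of other genes (GENCODE M21), with a limit of 20%, marked multi-copy genes.

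The members and the gene lists were chosen with earlier results of these data known. Named were the 20 highest members, the 4 markers, up to 5 highest members of each list, the 15 members with the largest and the 15 with the smallest SD among those of at least 10 FPKM, and 3 rows on either side of the threshold; unnamed and small RNA rows were passed over and stayed in the counts. Rows under the threshold, small RNA and pseudogene rows with their partner genes, and Slc32a1, Rln3, Mchr1, Cacna1a, Tfrc, Gpr6 and Drd1a were named after their values were seen. Some genes that this rule names are not reported here and stayed in the counts. Alternatives were other thresholds and pseudocounts, scaling, quantile normalization, summed rows of a symbol and each pool left out.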

Additional observations from a re-analysis of the deposited data

How the results depend on the processing

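The number of members was 10916 at a threshold of 0.5 FPKM, 6777 at 5 FPKM, 9363 with the threshold in each pool, 9959 with rows of a symbol summed, and from 9926 to 10023 with a pool left out. Housekeeping genes had the highest class level in 9 of 9 settings and the smallest spread in 9 of 11. The exceptions were no filter, where peptide genes had the smallest spread, and a pseudocount of 5, where channel genes had it.

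Class medians of level move with the threshold by construction, since it removes low rows. Without a filter they were 0.433 FPKM for all rows and 2, 81.7, 0.267, 0.667 and 3.42 FPKM for channel, housekeeping, peptide, receptor and transmitter genes; at 5 FPKM they were 17.4, 17.7, 112, 19.9, 14.6 and 39.3 in the same order. With a pool left out they ranged from 9.53 to 9.8 FPKM for all members, 6.3 to 6.8 for channel, 94.5 to 99.2 for housekeeping, 7.6 to 11.9 for peptide, 6.3 to 7.6 for receptor and 12.4 to 14.2 for transmitter genes.

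Class medians of the SD of log2 values were 0.087, 0.14 and 0.14 without a filter for all rows, peptide and receptor genes. A pseudocount of 5 gave 0.13 for all members and 0.12, 0.16, 0.15 and 0.14 for channel, peptide, receptor and transmitter genes, and one of 0.1 gave 0.25 for channels. Pools scaled to the same median gave 0.18 for housekeeping and 0.22 for peptide genes, and peptide genes were at 0.23 with quantile normalization and 0.21 at 5 FPKM. With a pool left out the medians ranged from 0.11 to 0.21 for all members, 0.16 to 0.24 for channel, 0.094 to 0.14 for housekeeping, 0.17 to 0.23 for peptide, 0.18 to 0.31 for receptor and 0.11 to 0.24 for transmitter genes.

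The deviation of a pool depends on scaling, which sets its zero. With pools scaled to the same median, WT1 was at 0.0060 for all members (from -0.11), 0.20 for housekeeping and 0.16 for peptide genes, and WT3 at -0.11 for housekeeping, -0.082 for peptide and -0.0094 for transmitter genes. Quantile normalization put WT1 at 0.12 for peptide and WT3 at -0.015 for transmitter genes. Without a filter WT1 was at 0 for all rows and -0.0055 for peptide genes and WT2 at 0 for peptide genes, and at 5 FPKM WT3 was at 0.0078 for peptide genes. The cause of the last sign changes was not tested, and the values lay near 0.

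No paired analysis was possible because a single group was described and no result came from a test. Depth is unknown for FPKM values, and the table's step of 0.1 limits what can be read from rows near 1 FPKM.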
